A study of Homo sapiens with 24 samples.

Results

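The interferon-stimulated genes described here are 38 genes that cells switch on, or turn up, after an interferon signal, together with genes of antigen presentation that follow the same signal. They were taken by symbol from a list of known interferon targets rather than by a cut on their values in these libraries, and all 38 of them were among the 58051 genes counted. The list was chosen with earlier results of these data known. Their level was measured in the control libraries of 4 human cancer cell lines, and their change after Ocoxin, a nutritional supplement that combines plant extracts with vitamins, minerals and amino acids, was measured within each cell line. SW620 represents colorectal adenocarcinoma (COAD), BxPC-3 pancreatic adenocarcinoma (PAAD), LNCaP prostatic adenocarcinoma (PRAD) and HCC-70 triple-negative breast cancer (TNBC). Each line gave 3 control and 3 Ocoxin libraries of polyadenylated RNA from adherent cells after 48 h in low-serum medium. The Ocoxin dilution was 1:700 for SW620 and HCC-70, 1:500 for BxPC-3 and 1:50 for LNCaP, and it was set for each line from its own viability curve. The control libraries carry the same dilution in their labels, so that the letter for control or Ocoxin in the title decided the group. Each cancer is represented by 1 established cell line, and the doses differ between lines. Nothing in the labels says that the libraries of a group came from separate cultures, so the p-values measure the spread between these libraries, which may be technical. RNA was measured in bulk, where fewer cells with a transcript and less of it per cell cannot be told apart.

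Interferons are secreted proteins that bind receptors on the cell surface. Receptor-bound kinases of the JAK family then phosphorylate STAT proteins. A complex that contains STAT2 and IRF9 binds the interferon-stimulated response element (ISRE) in the promoters of target genes, and other STAT pairs bind a different element, the GAS site. The target genes encode antiviral effectors, sensors, regulators of the same pathway and the machinery that presents peptides to T cells. Many tumor lines carry a standing level of these transcripts without added interferon, and others have lost parts of the pathway.

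RefSeq promoter windows (GRCh38.p14, 250 bases before to 50 bases after the start) were found for 31 of the 38 genes. An ISRE core, taken here as GAAA, any 2 or any 3 bases, and GAAA again on either strand, stood in 19 of those 31 windows (61.3%) and in 2135 of all 35116 windows (6.08%). The GAS core TTCNNNGAA stood in 9 of the 31 windows (29%) and in 7.66% of all windows, and these spellings can overlap one another. A match is a description of the letters and not a measured binding site. The stretches around the match nearest to the start are shown for the genes that Ocoxin altered and for 3 of the 6 genes with the widest spread between lines (IFI27, IFI44L and IFITM1), written along the gene's own strand with every base of an ISRE match in capitals.
BST2, chr19:17405735-17405764, minus strand: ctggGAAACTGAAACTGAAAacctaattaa
IFI6, chr1:27672251-27672310, minus strand: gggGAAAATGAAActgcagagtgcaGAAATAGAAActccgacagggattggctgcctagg
SAMD9, chr7:93118081-93118140, minus strand: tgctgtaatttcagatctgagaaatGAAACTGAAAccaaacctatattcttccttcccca
B2M, chr15:44711369-44711398, plus strand: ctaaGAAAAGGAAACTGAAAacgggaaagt
IFITM3, chr11:320861-320920, minus strand: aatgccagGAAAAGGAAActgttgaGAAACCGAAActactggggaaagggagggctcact
OAS3, chr12:112938452-112938473, plus strand: agccgggcggGAAAACGAAAcc
ISG20, chr15:88638937-88638966, plus strand: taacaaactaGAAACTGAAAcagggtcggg
PARP14, chr3:122680785-122680838, plus strand: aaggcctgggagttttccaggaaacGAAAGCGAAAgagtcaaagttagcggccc
IFI27, chr14:94110616-94110675, plus strand: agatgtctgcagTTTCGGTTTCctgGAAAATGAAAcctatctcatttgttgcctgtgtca
IFI44L, chr1:78620365-78620394, plus strand: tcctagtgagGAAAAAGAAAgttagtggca
IFITM1, chr11:313990-314019, plus strand: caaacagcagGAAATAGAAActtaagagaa
The matches shown for BST2 and B2M each consist of 2 overlapping copies of the spelling with 2 free bases. The windows of STAT2, IRF1, IFI35 and HLA-B, which were also altered in at least 1 line, held no match to either spacing, and IFITM2 was not among the RefSeq windows used here. Of the 6 genes with the widest spread, IFI44 also held a match, which is not shown, and SAMD9L and XAF1 held none.

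Counts per library summed to between 25160757 and 39009959 in COAD, PAAD and TNBC and to between 9063968 and 9520969 in PRAD. The PRAD table had been counted with other settings, so that levels are compared only among COAD, PAAD and TNBC. In that table the highest count per exonic base was 0.995 at most, against 34.1 to 49 in the other libraries, and levels of abundant genes in PRAD are therefore read with caution. A marker of each tissue was present in the line that should carry it. VIL1 read 469 to 527 CPM (the count scaled to a common library size) in COAD and KRT7 969 to 1100 in PAAD. KLK3 read 377 to 410 in PRAD and the basal keratin KRT5 1410 to 1670 in TNBC. KRT5 does not separate TNBC from PAAD, where it read 2430 to 3310, and KRT7 read 557 to 695 in TNBC. Other duct markers were lower in PAAD than in TNBC, with SOX9 at 16.8 to 25.1 against 156 to 173 and MUC1 at 76 to 93.1 against 281 to 384. The duct markers thus do not set BxPC-3 apart from HCC-70. The leukocyte gene PTPRC did not pass 0.214 CPM in any library, whereas the monocyte marker CD14 read 105 to 137 CPM in TNBC, whose part in any result was not tested.

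The question of the first comparison was how strongly each line expresses the interferon-stimulated genes without Ocoxin. BxPC-3 held the highest level of 32 of the 38 genes and SW620 the lowest level of 31, with HCC-70 between both for most of them. Several effectors that were abundant in BxPC-3, such as IFI27, IFI44 and IFITM1, were close to absent in SW620. The class I antigen presentation genes HLA-B and HLA-C and the transcription factor IRF7 were highest in SW620 and near 0 in BxPC-3. IFITM2 also had its highest mean in SW620, and USP18 and TAP1 had theirs in HCC-70. Levels are given as CPM per kilobase of exon, on a common scaling of the 9 control libraries of these lines.

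In PAAD against COAD, 34 of the 38 genes were higher by at least 2-fold with an adjusted p under 0.05 (edgeR, quasi-likelihood test with Benjamini-Hochberg adjustment), a call that 23.1% of all 19930 tested genes met. The 3 that were lower were IRF7, HLA-B and HLA-C, against 22.7% of all genes. The median log2 difference of the members was 3.77, beside -0.04 over all tested genes. TNBC against COAD gave 30 higher members (25.2% of all genes) and 4 lower members (26.2%), with a median log2 difference of 2.35 beside -0.04. The 4 lower ones were IFITM2, MX2, HLA-B and HLA-C. TNBC against PAAD gave 3 higher members (20.6% of all genes), namely IRF7, HLA-B and HLA-C, and 25 lower members (22.4%), with a median of -1.42 beside -0.03. The 3 comparisons share control libraries and are not independent of each other.

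**Figure D1:**
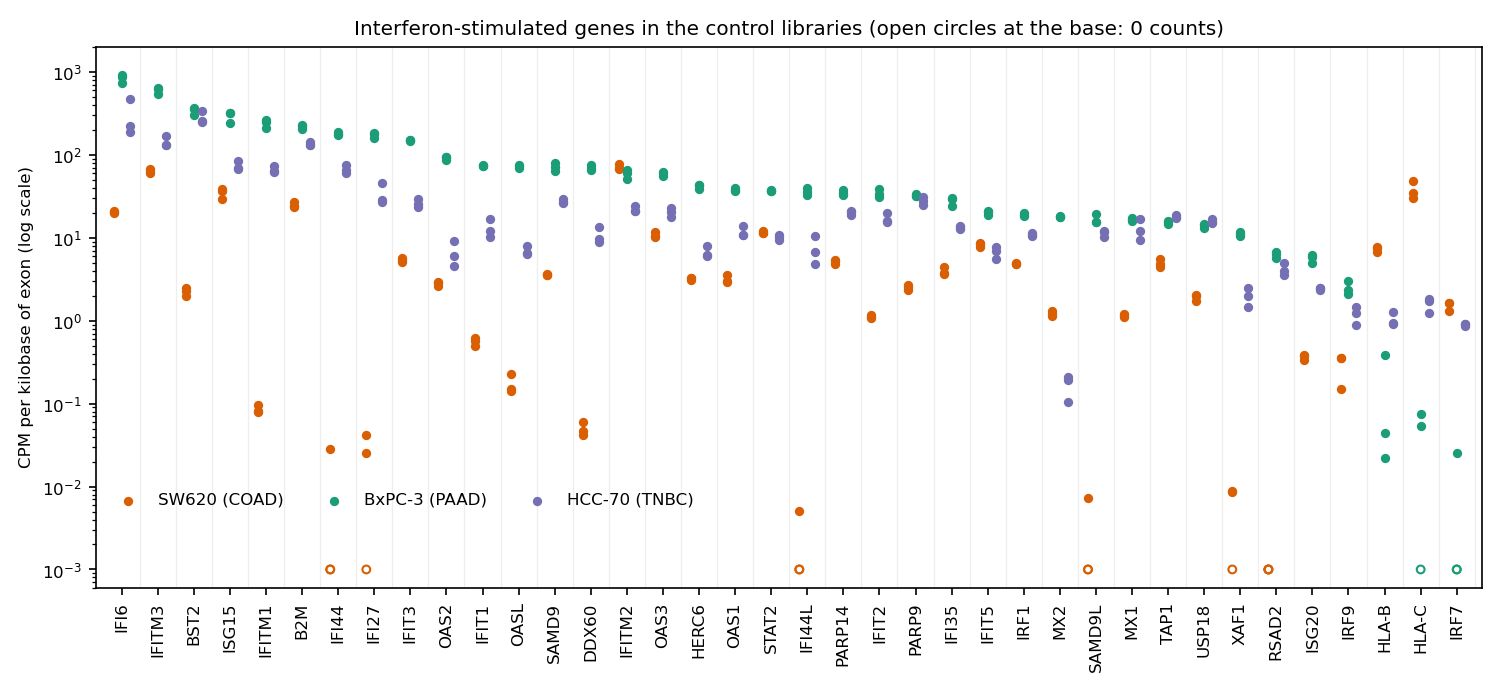
Level of each of the 38 genes in each control library of SW620, BxPC-3 and HCC-70, in CPM per kilobase of exon on a log axis, with genes ordered by their mean in BxPC-3. One point is 1 library, and open circles at the base mark libraries with 0 counts. SW620 lies lowest for 31 genes, and the order turns over for IRF7, HLA-B and HLA-C at the right.

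The 6 genes with the widest spread between lines, ranked with a floor of 3 counts over a group, were all lowest in SW620. IFI44L, whose function is poorly defined beyond its response to type I interferon, read 32.6, 35.4 and 40.4 CPM per kilobase in the PAAD control libraries and 6.83, 4.85 and 10.6 in TNBC, with 2 counts over the 3 COAD libraries together. The neighbouring gene IFI44, a cytoplasmic antiviral factor, read 175, 180 and 188 in PAAD and 65.7, 60.8 and 75.9 in TNBC, again with 2 counts over the COAD libraries. The PAAD to COAD ratio of IFI44 was 19800, with a 95% counting interval from 3560 to 784000 set by those 2 counts. IFI44 and IFI44L thus did not overlap between any of the 3 lines.

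IFI27, a mitochondrial and nuclear envelope protein often used as a marker of interferon exposure, read 186, 181 and 158 CPM per kilobase in PAAD and 27.3, 28.6 and 46.4 in TNBC. Its 3 COAD libraries held 0, 4 and 6 counts, which gives a PAAD to COAD ratio of 7770 (95% counting interval 3330 to 23900). IFITM1, a membrane protein that blocks virus entry, read 264, 247 and 211 in PAAD and 63, 64.6 and 73.3 in TNBC. In COAD it held 3, 4 and 3 counts, for a ratio of 2790 (interval 1190 to 8580), and 32.5% of its exonic bases are shared with an overlapping gene. SAMD9L, a growth-restraining antiviral factor, read 15.4, 15.7 and 19.2 in PAAD and 12.2, 10.1 and 11.6 in TNBC, against 2 counts over the COAD libraries. XAF1, which promotes apoptosis by opposing the inhibitor XIAP, read 10.5, 11.1 and 11.7 in PAAD and 1.97, 1.47 and 2.46 in TNBC, against 4 counts in COAD. Exons of another gene overlap 38.3% of the exonic bases of XAF1. RSAD2, which encodes the radical SAM enzyme viperin and was chosen after its values were seen, had 0 counts in every COAD library, so that its place in this ranking depends on the floor. Its ratio of PAAD to COAD was 1080 against that floor, and the lower 95% counting limit, which takes 2 counts as 1 fragment, was 440. Intervals and floors cover counting error only.

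Genes with a standing level in every line differed less. ISG15, a ubiquitin-like modifier, read 29.3, 36.5 and 38.4 CPM per kilobase in COAD, 324, 318 and 243 in PAAD and 67.4, 68.6 and 84.4 in TNBC. The lines did not overlap, and the PAAD mean was 8.48 times the COAD mean. B2M, the invariant light chain of class I molecules, averaged 25 ± 1.67 in COAD, 219 ± 11.5 in PAAD and 136 ± 7.02 in TNBC (mean ± SD, n = 3). STAT2, a subunit of the ISRE-binding complex, averaged 11.6 ± 0.32, 37.1 ± 1.03 and 10.2 ± 0.7 in the same order, and COAD and TNBC did not reach the 2-fold call. IRF9, the DNA-binding subunit of that complex, averaged 0.286 ± 0.12, 2.49 ± 0.47 and 1.2 ± 0.3, but 48.4% of its exonic bases are shared with another gene on the same strand. STAT2 and IRF9 spread less between lines than the genes of the widest spread above, a contrast that the choice of those genes sets. The PAAD to COAD ratio was 8.71 for IRF9, beside 8.48 for ISG15 and 8.76 for B2M, and 3.2 for STAT2. Whether these factors vary less than effectors in general was not tested.

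The exceptions ran the other way. HLA-C, a classical class I heavy chain, read 34.6, 30 and 49 CPM per kilobase in COAD, 1.25, 1.74 and 1.82 in TNBC, and held 0, 4 and 6 counts in PAAD. HLA-B read 7.49, 6.67 and 7.72 in COAD and 0.924, 0.943 and 1.27 in TNBC, and 37 of its 43 counts in PAAD stood in the third control library. Class I genes are highly polymorphic and were aligned to 1 reference allele, so their levels between lines are uncertain. IRF7, the master regulator of type I interferon induction, averaged 1.53 ± 0.2 in COAD and 0.896 ± 0.03 in TNBC and held 2 counts in PAAD. MX2, a dynamin-like restriction factor of retroviruses, averaged 18 ± 0.35 in PAAD and 1.22 ± 0.08 in COAD but 0.169 ± 0.06 in TNBC. IFITM2 averaged 71.6 ± 5.59 in COAD, 59.5 ± 7.43 in PAAD and 22.2 ± 1.57 in TNBC.

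LNCaP could be placed only against its own transcriptome. Ranked by CPM per kilobase among the genes tested in a line, the median member stood at percentile 22.8 in PRAD, 42.6 in COAD, 73.8 in TNBC and 90.7 in PAAD. The highest count per exonic base in the PRAD table was 0.995, so its percentiles cannot be compared with those of the other lines. B2M, for example, stood at percentile 33.2 in PRAD and at 88 to 99.2 in the other lines. In PRAD 8 members lay under percentile 10, among them OAS2, MX2, IFI44L, SAMD9L and XAF1, and 2 members, ISG15 and IFITM3, lay at or above percentile 90. XAF1 had 0 counts in the 3 PRAD control libraries. JAK1, the kinase shared by the receptors of all interferon types, stood at percentile 31.3 in PRAD with 26.5, 25.7 and 17.6 CPM in the control libraries. In the other lines, whose percentiles cannot be compared with that of PRAD, JAK1 stood at percentile 87.2 (COAD), 94.7 (PAAD) and 97.5 (TNBC). JAK1 was not called for Ocoxin in any line (adjusted p between 0.512 and 0.77).

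The second question was whether Ocoxin altered the interferon-stimulated genes within each line. Of the called changes, only BST2 in SW620 and ISG20 and PARP14 in LNCaP passed 1.5-fold, and the direction of the calls varied by line. In SW620, the line with the lowest level of most members among the 3 that could be compared, the called members all rose, and they included BST2 and the class I genes HLA-B and B2M. In BxPC-3 and LNCaP 2 members each were called, and in HCC-70 the calls went both ways. Without the replicate block, edgeR called no member in the same direction in more than 1 line, except SAMD9, which rose in SW620 and HCC-70, and IFITM2, which fell in BxPC-3 and HCC-70.

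**Figure D2:**
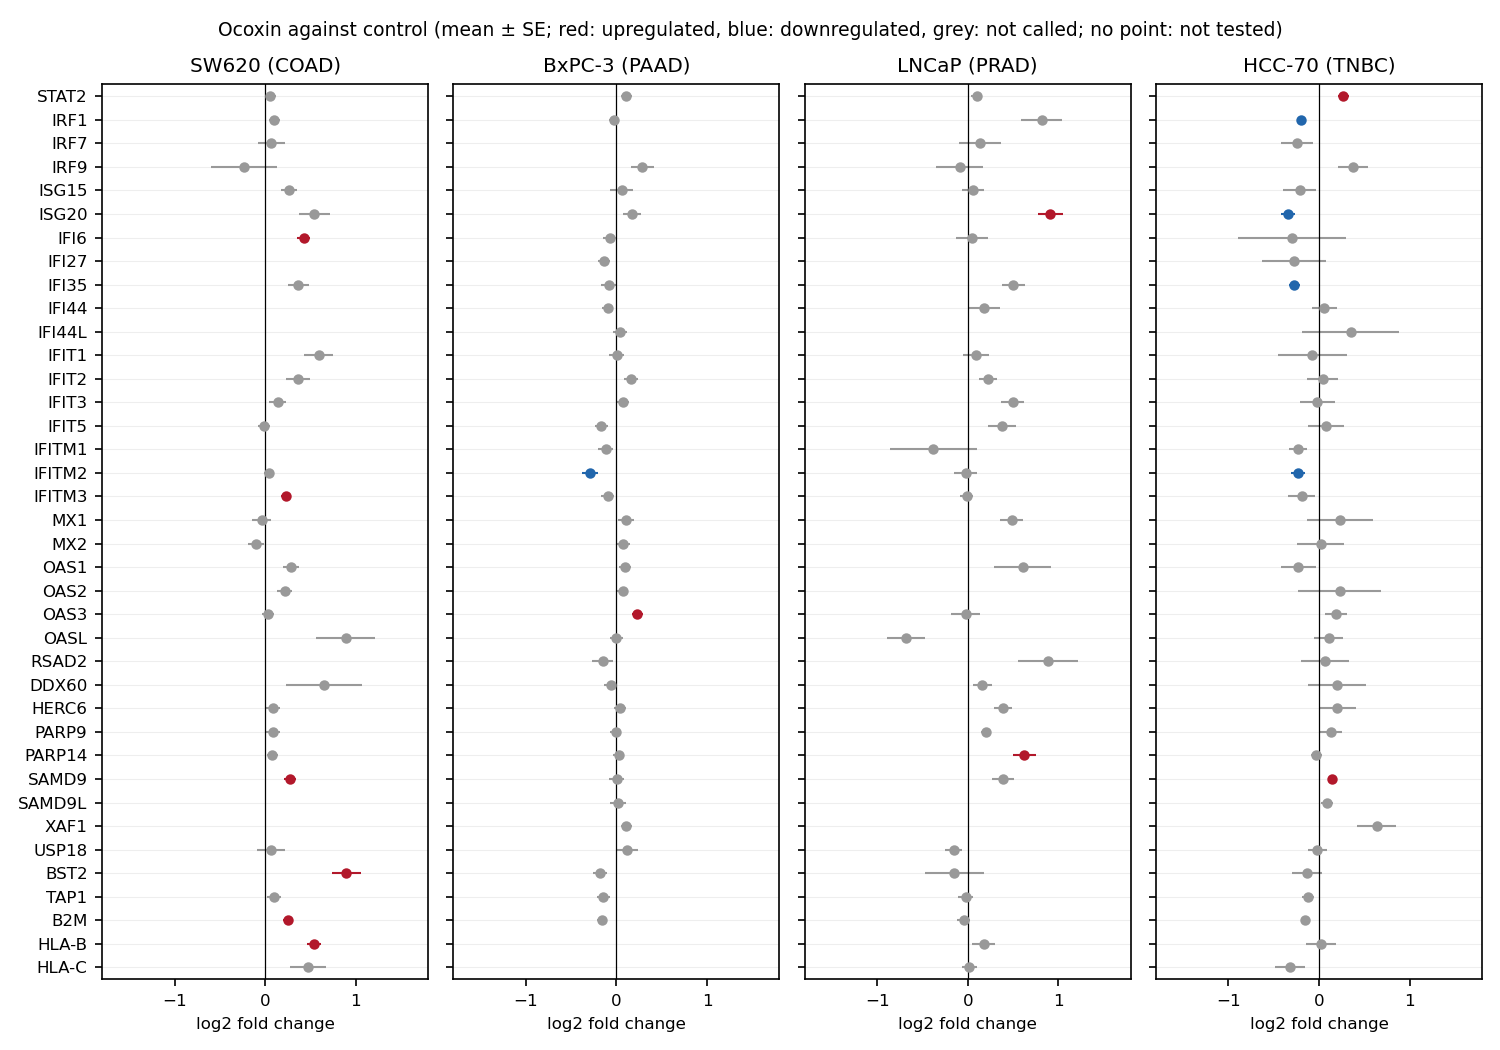
Log2 fold change of the 38 genes, Ocoxin against control, in each cell line, with bars for the SE of the edgeR fit (3 and 3 libraries). Red marks upregulated members, blue downregulated ones, grey those that were not called, and a row without a point was not tested. Points lie mostly right of 0 in SW620 and LNCaP and on both sides in BxPC-3 and HCC-70.

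In COAD cells 31 members passed the filter on low counts. The 7 that did not were IFI27, IFI44, IFI44L, IFITM1, RSAD2, SAMD9L and XAF1. Of the 31, 6 were upregulated (1.47% of all tested genes) and 0 downregulated (1.09%) at an adjusted p under 0.05 (edgeR). An unadjusted p under 0.05 was found for 14 members, of which 0 were lower after Ocoxin, and for 2818 of all 17659 genes. DESeq2 called 6 up and 0 down. The share of all genes called by DESeq2 is not given for any line, so its counts are not read as a result about the members. The median log2 fold change of the tested members was 0.22, beside -0.01 over all tested genes, and 27 of 31 values were above 0.

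The largest called change was in BST2, or tetherin, a membrane protein that holds budding virus particles on the cell surface. BST2 read 2.46, 2.86 and 3.05 CPM in the control libraries and 4.69, 5.33 and 5.62 after Ocoxin. Every treated library lay above every control library, and the fold was 1.86 (log2 0.9 ± 0.16 SE, adjusted p = 0.00371). This is the low end of the range of BST2, since its controls averaged 358 ± 33.5 CPM in PAAD. IFI6, a mitochondrial protein that delays apoptosis, read 19.6, 20.2 and 18.9 CPM in controls and 24.5, 27.1 and 27.2 after Ocoxin. The groups of IFI6 did not overlap, with a fold of 1.34 (log2 0.42 ± 0.08, adjusted p = 0.00346).

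Of the 4 antigen presentation members, HLA-B and B2M rose in COAD cells. HLA-B read 25.1, 22.3 and 25.3 CPM in controls and 33, 34.1 and 38.5 after Ocoxin, a fold of 1.45 (log2 0.54 ± 0.08, adjusted p = 0.000435). B2M read 166, 160 and 178 in controls and 188, 200 and 214 after Ocoxin, a fold of 1.2 (log2 0.26 ± 0.06, adjusted p = 0.0132). Both genes had every Ocoxin library above every control library. HLA-C had a log2 fold change of 0.47 (adjusted p = 0.359) and TAP1, a subunit of the peptide transporter, of 0.1, and neither passed the test. SAMD9, a paralog of SAMD9L that restrains virus replication and cell growth, read 27.7, 27.1 and 26.7 in controls and 32.5, 32 and 34.1 after Ocoxin (log2 0.27 ± 0.07, adjusted p = 0.0301). IFITM3, which traps viruses in endosomes, was the 6th called member, at 94.7 ± 4.1 CPM in controls and 111 ± 7 after Ocoxin (adjusted p = 0.0302), and 21.3% of its exonic bases are shared with another gene. The transcription factors STAT2, IRF1, IRF7 and IRF9 had 0 calls, with STAT2 at 81.1, 77.5 and 75.7 CPM in controls and 88.3, 75.9 and 79.1 after Ocoxin. IRF9 read 1.49, 1.49 and 0.622 in controls and 1.46, 0.629 and 0.95 after Ocoxin. ISG15 read 30.7, 38.2 and 39.4 in controls and 39.6, 47.6 and 43 after Ocoxin, which did not overlap but did not pass the test (log2 0.26 ± 0.09, adjusted p = 0.162).

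These calls depend on single libraries. Without control 1, control 2 or Ocoxin 2, only BST2, HLA-B and IFI6 were called, whereas without control 3 there were 11 calls. SAMD9 and IFITM3 also lost their call without Ocoxin 3, and IFITM3 once the trend with exonic length and GC content was removed (adjusted p = 0.117). In a fit of all 24 libraries, which pools the spread of the 4 lines, B2M was the 1 member called.

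In PAAD cells 35 members were tested, since IRF7, HLA-B and HLA-C had too few counts. OAS3 rose (4.72% of all genes were upregulated) and IFITM2 fell (3.62% were downregulated), so the share of members called, 5.71%, was not above that of all genes. The median log2 fold change was 0.0034, beside 0.0027 over all genes. OAS3, which makes short oligoadenylates on sensing double-stranded RNA, read 433, 464 and 482 CPM in controls and 524, 592 and 504 after Ocoxin (log2 0.23 ± 0.06, adjusted p = 0.0353). IFITM2, a relative of IFITM3 that acts at late endosomes, read 95.6, 87.2 and 75.3 in controls and 74.9, 73.4 and 61.9 after Ocoxin (log2 -0.3 ± 0.09, adjusted p = 0.047). The groups did not overlap in either gene, although control 3 and Ocoxin 1 lay close together for IFITM2. B2M read 1290, 1280 and 1190 in controls and 1110, 1140 and 1100 after Ocoxin, which missed the threshold with edgeR (adjusted p = 0.064) and passed it with DESeq2 (adjusted p = 0.03). DESeq2 called 3 members, 1 up and 2 down.

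Libraries with the same number deviated together in PAAD cells, and with the number as a block 3 members rose (12.1% of all genes) and 8 fell (11%). OAS3, IRF9 and ISG20 were the 3 that rose. The 8 that fell were the 4 membrane factors IFITM1, IFITM2, IFITM3 and BST2, together with B2M, TAP1, IFI27 and IFIT5. B2M fell by 0.16 on the log2 scale (adjusted p = 0.000188) and BST2 by 0.18 (adjusted p = 0.000168). STAT2 read 210, 208 and 221 CPM in controls and 234, 241 and 213 after Ocoxin, IRF9 7.42, 8.44 and 10.8 against 10.3, 11.5 and 10.7, and ISG15 284, 282 and 217 against 287, 317 and 213. STAT2 and ISG15 were not called with or without the block. Without the block, leaving out control 1, control 2, Ocoxin 1 or Ocoxin 2 left 0 calls among the members, leaving out Ocoxin 3 left 1 (OAS3), and leaving out control 3 gave 7.

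In PRAD cells 32 members were tested, without IFI27, IFI44L, MX2, OAS2, SAMD9L and XAF1. ISG20 and PARP14 rose (2.4% of all genes were upregulated) and 0 members fell (0.58% were downregulated). An unadjusted p under 0.05 was found for 12 members, of which 1 (OASL) was lower after Ocoxin, and for 3547 of all 17070 genes, and DESeq2 called 3 up and 0 down. The median log2 fold change was 0.15, beside 0.01 over all genes. ISG20, an exonuclease that degrades single-stranded viral RNA, read 17.4, 19 and 16.1 CPM in controls and 39.3, 30.6 and 29.1 after Ocoxin. Its treated libraries were well above its controls, with a fold of 1.88 (log2 0.91 ± 0.13, adjusted p = 0.0219), the largest called change of any member in any line. PARP14, an ADP-ribosyltransferase, read 9.92, 12.2 and 9.94 in controls and 15.5, 18 and 16 after Ocoxin, a fold of 1.54 (log2 0.63 ± 0.12, adjusted p = 0.0428).

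With the library number as a block, 8 members rose in PRAD cells (5.81% of all genes) and OASL fell (2.69%). Beside ISG20 and PARP14 the 8 were PARP9, HERC6, IRF1, IFIT5, IFI35 and MX1. IRF1, the transcription factor that interferon gamma induces through GAS sites, read 8.07, 8.08 and 9.73 CPM in controls and 20.7, 11.5 and 13.4 after Ocoxin. OASL, a relative of the OAS enzymes without their activity, read 5.02, 8.29 and 7.65 against 4.06, 4.83 and 4.21, and fell by 0.67 on the log2 scale (adjusted p = 0.0489 with the block). STAT2 read 129, 115 and 112 in controls and 133, 127 and 121 after Ocoxin, IRF9 5.56, 5.32 and 3.39 against 5.56, 4.61 and 3.21, and ISG15 25.4, 35 and 34.1 against 33.7, 32 and 32.5. None of these 3 genes was called. B2M held between 219 and 233 counts in the 6 PRAD libraries, an SD of 5.72 counts where counting error alone gives 15, so its lack of change in this table cannot be read. Without the block, leaving out control 1, control 2, control 3 or Ocoxin 2 left 0 calls, and leaving out Ocoxin 1 or Ocoxin 3 left 1.

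In TNBC cells all 38 members were tested. STAT2 and SAMD9 rose (9.65% of all genes were upregulated), whereas IRF1, ISG20, IFI35 and IFITM2 fell (11.3% were downregulated). The share of members called, 15.8%, was not above that of all genes. DESeq2 called 8 members, 2 up and 6 down, adding IFITM1 and B2M. The median log2 fold change was 0.001, beside 0.0056 over all genes. STAT2 read 62, 57.4 and 65.9 CPM in controls and 72.1, 72.8 and 78.4 after Ocoxin (log2 0.27 ± 0.06, adjusted p = 0.00563). SAMD9 read 198, 177 and 181 against 210, 201 and 202 (log2 0.14 ± 0.05, adjusted p = 0.0449). Both lay above their controls in every treated library, by a narrow margin for SAMD9. The call of SAMD9 was also lost once the trend with exonic length and GC content was removed (adjusted p = 0.242).

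Of the 4 members that fell in TNBC cells, ISG20 changed most. ISG20 read 18.2, 17.9 and 17.2 CPM in controls and 14.1, 15.1 and 12.8 after Ocoxin (log2 -0.34 ± 0.08, adjusted p = 0.00968). IFI35, a leucine zipper protein that binds NMI, read 26.5, 25.2 and 27.3 against 22, 22.2 and 21.3 (log2 -0.27 ± 0.06, adjusted p = 0.00861). In both genes every treated library lay under every control library. IRF1 read 83.4, 87.3 and 80.6 against 71.5, 75.2 and 72.7 (log2 -0.2 ± 0.05, adjusted p = 0.0101), and IFITM2 read 32.6, 36.7 and 32.5 against 31.5, 29.1 and 26.1 (log2 -0.23 ± 0.08, adjusted p = 0.0461). STAT2, ISG20 and IFI35 kept their call in each of 16 alternative fits, but none of the 3 reached a minimum of 1.5-fold. IRF1 lost its call without Ocoxin 1 and in the fit of all 24 libraries. SAMD9 lost it without control 2, control 3, Ocoxin 1 or Ocoxin 2, and IFITM2 without control 1, control 2, Ocoxin 2 or Ocoxin 3, with adjusted p values up to 0.267 and 0.19.

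**Figure D3:**
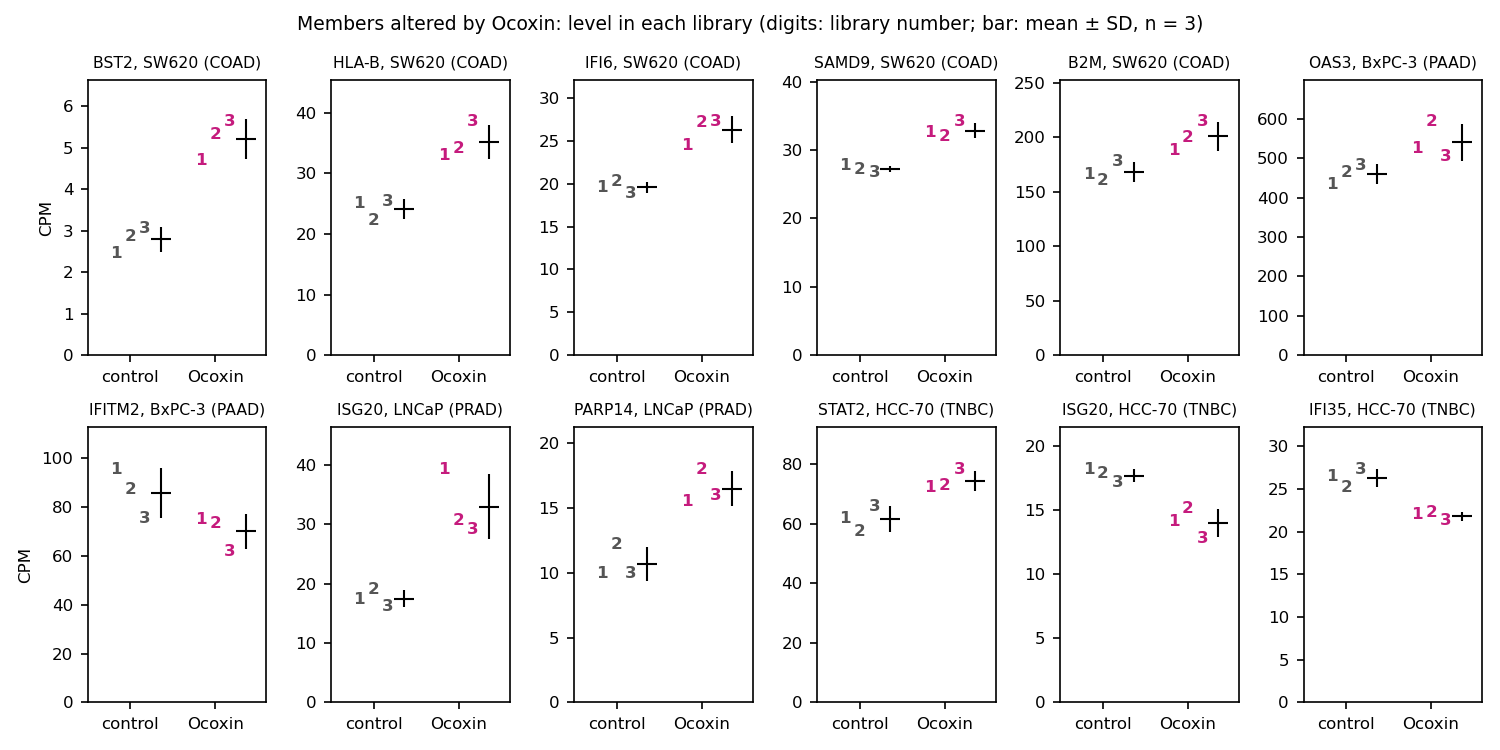
Level of 12 called member and cell line pairs in each library, in CPM on axes that start at 0. Digits give the library number, grey for control and magenta for Ocoxin, and the black marks are the mean ± SD of 3 libraries. The control and Ocoxin libraries do not overlap in any of the panels.

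The TNBC comparison hid a large difference between libraries. Both libraries numbered 3, control and Ocoxin alike, carried more of the interferon-stimulated transcripts than the others of their condition. The median member of control 3 lay 0.191 above its condition's mean on the log2 scale, with 34 of 38 members above it, and that of Ocoxin 3 lay 0.236 above with 32 of 38. Over all tested genes the corresponding medians were 0.000775 and -0.0013. IFI6 read 161, 188 and 405 CPM in the control libraries and 136, 142 and 335 after Ocoxin. IFI27 counts were 4318, 4470 and 7094 in controls and 3488, 3492 and 6156 after Ocoxin. The labels name no batch for the number 3, and what sets these libraries apart was not tested. In PAAD cells Ocoxin 2 was the highest of its condition in 31 of 35 members and Ocoxin 3 lay under the mean in all but 1.

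**Figure D4:**
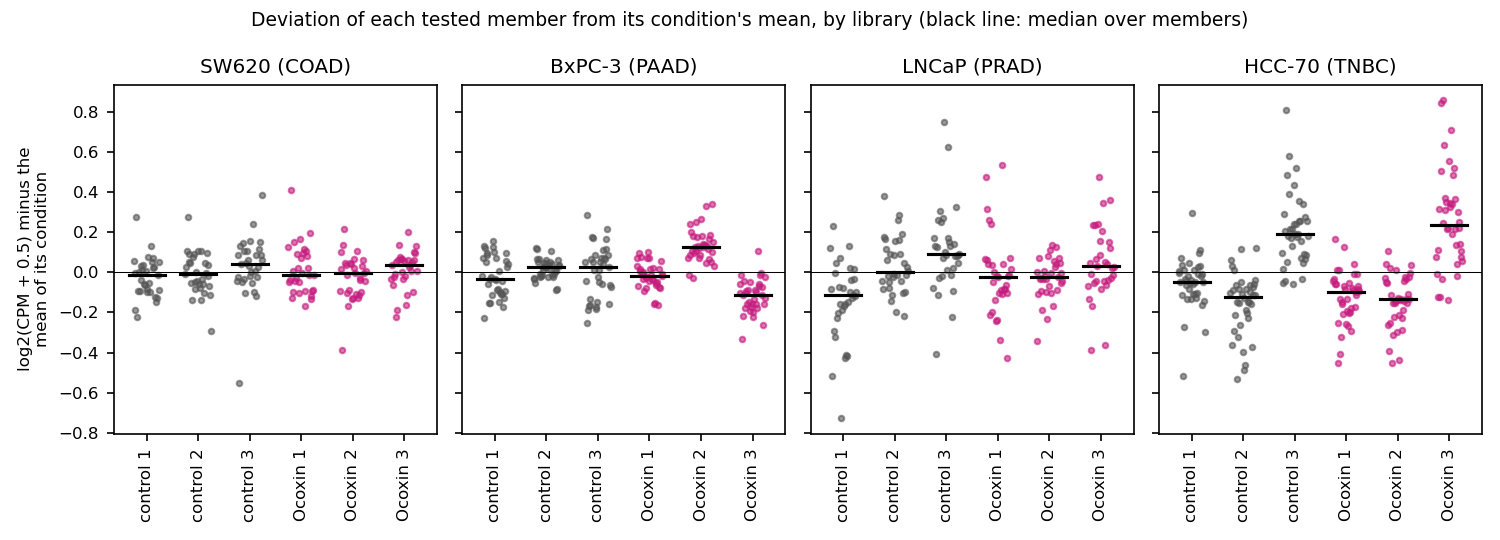
Deviation of each tested member from the mean of its condition, in log2(CPM + 0.5), for each of the 24 libraries. Each point is 1 gene and the black line is the median over members. Control 3 and Ocoxin 3 of HCC-70 stand 0.191 and 0.236 above 0.

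With the library number as a block, the TNBC calls rose to 10 members up (16.3% of all genes) and 13 down (17.6%). The 10 that rose were STAT2, IRF9, OAS2, OAS3, MX1, DDX60, HERC6, PARP9, SAMD9 and XAF1. The 13 that fell were IRF1, ISG15, ISG20, OAS1, IFI6, IFI27, IFI35, IFITM1, IFITM2, IFITM3, BST2, TAP1 and B2M. XAF1 rose most, by 0.64 ± 0.08 on the log2 scale (adjusted p = 1.63e-10), and IFI6 fell by 0.31 (adjusted p = 1.53e-12). IRF9 read 4.67, 3.33 and 5.53 CPM in controls and 5.59, 5.6 and 6.34 after Ocoxin, ISG15 62.8, 63.9 and 78.6 against 55.8, 48.4 and 72.5, and B2M 789, 794 and 864 against 693, 722 and 789. All 4 membrane factors fell with the block in TNBC cells, as they did in PAAD cells. With both number 3 libraries left out instead, an alternative added after seeing the data, 5 members rose and 13 fell. The share of all genes called in that fit is not given, so these counts are not read as a result about the members.

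In TNBC cells the 10 members that rose with the block had a median exonic length of 6682 bases (range 3794 to 8938) and the 13 that fell one of 1973 bases (range 865 to 7799). The ranges overlapped, and IRF1, ISG20 and B2M fell although their exonic length was large. Exonic length counts all annotated exons of a gene and is not the length of a single transcript. Over the 38 members, the Spearman correlation between exonic length and log2 fold change was 0.503 (Pearson's r on log2 length 0.518), and over all 17352 tested genes the Spearman correlation was 0.159. With GC content in place of length it was -0.553 over the members. With length, over the tested members, it was 0.389 in PAAD, 0.501 in PRAD and -0.314 in COAD, beside 0.117, 0.0545 and -0.0947 over all genes. The genes of 1 library share its RNA and its preparation, and these values are descriptions without a test. After a trend in length and GC content was removed within the blocked fit, 8 members rose and 14 fell in TNBC cells. The share of all genes called in that fit is not given either. The part of exonic length in the changes of the members was not tested further.

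Grouped by role, the calls without the block were spread thinly. The 4 transcription factors had 1 call up (STAT2) and 1 down (IRF1), both in TNBC. The ISG15 system (ISG15, its protease USP18 and the ligase-like HERC6), the 4 IFIT proteins, some of which bind foreign RNA ends, and the group of MX1, MX2 and RSAD2 had 0 calls in any line. The 6 RNA-directed effectors had OAS3 up in PAAD, ISG20 up in PRAD and ISG20 down in TNBC. The 4 membrane factors had 2 calls up in COAD and 1 down each in PAAD and TNBC. Of the 5 IFI genes, IFI6 rose in COAD and IFI35 fell in TNBC, and the group of PARP9, PARP14, SAMD9, SAMD9L and XAF1 had 1 call up in COAD, PRAD and TNBC each. Of the 4 antigen presentation genes, edgeR called 2 up in COAD and 0 in the other lines. In PAAD only 2 of the 4 were tested, since HLA-B and HLA-C had too few counts. In PRAD the counts of B2M, TAP1, HLA-B and HLA-C varied less than counting error alone gives, so their lack of calls cannot be read. DESeq2 called B2M down in PAAD (adjusted p = 0.03) and TNBC (adjusted p = 0.0256).

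Whether the response itself differed between lines was tested for COAD, PAAD and TNBC as a difference of log2 fold changes, over 21068 genes. TNBC and COAD differed in 5 members (7.85% of all genes), PAAD and COAD in 2 (3.96%) and TNBC and PAAD in 1 (4.56%). BST2 rose in COAD while its log2 fold change was -0.18 in PAAD and -0.13 in TNBC. The differences of BST2 were -1.08 ± 0.27 (adjusted p = 0.0394) and -1.03 ± 0.27 (adjusted p = 0.0332). For B2M they were -0.43 ± 0.08 (PAAD against COAD, adjusted p = 0.00205) and -0.41 ± 0.08 (TNBC against COAD, adjusted p = 0.00136). The B2M response was thus lower in both lines than in COAD, although edgeR without the block did not call B2M in PAAD or TNBC alone.

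ISG20, which fell in TNBC and had uncalled log2 fold changes of 0.54 in COAD and 0.17 in PAAD, differed between TNBC and COAD by -0.89 ± 0.19 (adjusted p = 0.0028) and between TNBC and PAAD by -0.5 ± 0.14 (adjusted p = 0.0378). IFI35 (-0.64 ± 0.15, adjusted p = 0.00504) and IRF1 (-0.3 ± 0.08, adjusted p = 0.014) also fell in TNBC and differed from COAD, where their log2 fold changes were 0.37 and 0.1 and were not called. SW620 and HCC-70 received the same dilution. The BST2 difference from COAD lost its call in 11 of 24 alternatives for PAAD (adjusted p up to 0.126) and in 8 of 24 for TNBC (up to 0.0993). For both lines these included leaving out COAD control 1, control 2, Ocoxin 2 or Ocoxin 3, for PAAD also COAD control 3 and PAAD control 1, control 2, Ocoxin 1 or Ocoxin 3, and for TNBC also TNBC Ocoxin 1 or Ocoxin 2. ISG20 lost its call between TNBC and PAAD without PAAD control 3, Ocoxin 1 or Ocoxin 2 or TNBC control 1, control 2, Ocoxin 1 or Ocoxin 3 (adjusted p up to 0.149), and IRF1 lost its own without TNBC control 2 (0.0544). The differences of B2M, and those of ISG20 and IFI35 between TNBC and COAD, kept their call in all 24 alternatives. With the library number as a block, TNBC and PAAD differed in 7 members (12.5% of all genes), namely ISG20, ISG15, IRF1, IFI6 and OAS1, whose log2 fold change was lower in TNBC, and DDX60 and XAF1, whose log2 fold change was higher in TNBC. PRAD stood in another table and was not included in this test.

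**Figure D5:**
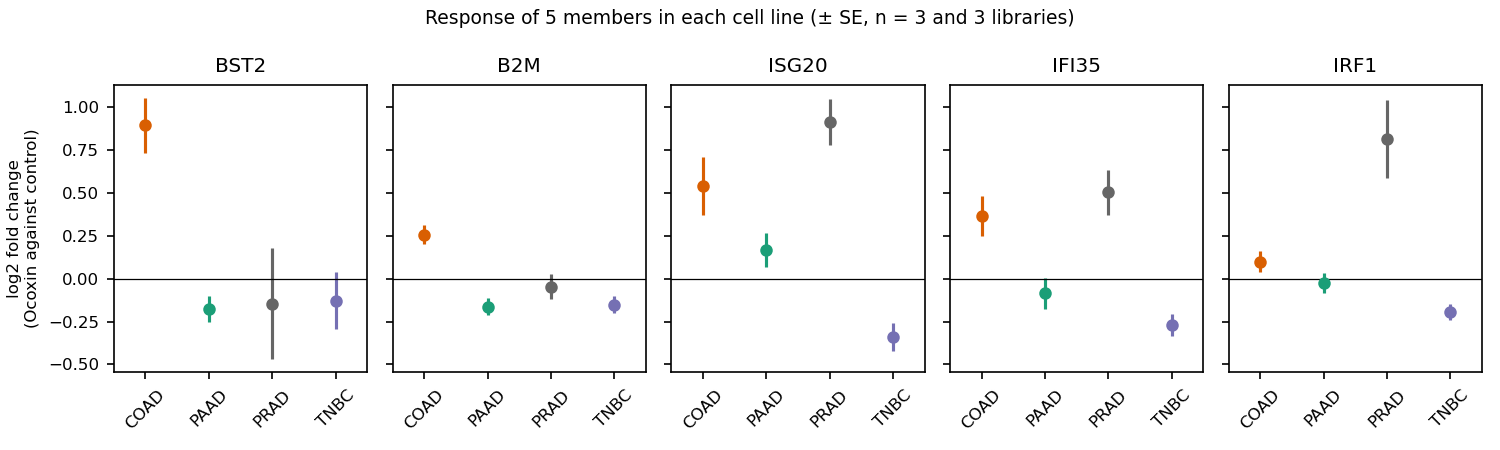
Log2 fold change of BST2, B2M, ISG20, IFI35 and IRF1, Ocoxin against control, in each cell line, with bars for the SE of the edgeR fit over 3 control and 3 Ocoxin libraries. BST2 was upregulated in COAD, and ISG20 was upregulated in PRAD and downregulated in TNBC.

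The other genes of the pathway were read from separate lists. Like the members, these lists were chosen with earlier results of these data known, so they are not an independent check of the members. Of 21 interferon ligand genes, 1 passed the filter in PAAD (IFNL1) and 1 in TNBC, and 0 were called. IFNL1, a type III interferon, read 0.308, 0.381 and 0.652 CPM in the PAAD controls and 0.256, 0.485 and 0.0578 after Ocoxin. IFNB1 had at most 5 counts in any library. Of 6 receptor genes, all tested in PAAD and TNBC, IFNLR1 rose (log2 0.56 ± 0.15) and IFNGR1 fell (-0.27 ± 0.05) in PAAD. Of all genes, 4.72% rose and 3.62% fell there. In TNBC IFNGR2 fell (-0.58 ± 0.08), beside 11.3% of all genes. The IFNGR2 libraries read 12.7, 13.6 and 12.8 CPM in controls and 8.61, 8.99 and 8.59 after Ocoxin, without overlap.

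Among 14 genes of signal transduction and feedback, 2 of 13 tested fell in PAAD (3.62% of all genes) and 3 of 13 in TNBC (11.3%). In COAD and PRAD 0 were called. The largest were CISH in PAAD (log2 -0.56 ± 0.12) and SOCS3 in TNBC (-1.01 ± 0.11), both cytokine-induced inhibitors of JAK signalling. SOCS3 read 11.6, 9.76 and 10 CPM in controls and 5.59, 5.38 and 4.65 after Ocoxin. Of 16 nucleic acid sensors and adaptors, 2 of 15 tested fell in TNBC, near the 11.3% of all genes that fell there. The larger of these falls was in STING1, the adaptor of the cytosolic DNA sensor (-0.5 ± 0.07). STING1 read 42.8, 45.2 and 42.4 in controls and 33.3, 31.2 and 27.9 after Ocoxin.

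Of 23 further antigen presentation genes, 0 of 19 tested were called in COAD, where their median log2 fold change was 0.0067. In PAAD 1 rose and 6 fell of 19 tested, beside 4.72% and 3.62% of all genes, in PRAD 2 rose of 16 (2.4%), and in TNBC 1 rose and 4 fell of 20 (9.65% and 11.3%). HLA-F led the PAAD calls upward (log2 1.38 ± 0.16), from 2.12, 2.28 and 1.93 CPM to 5.98, 5.61 and 4.85, and PSME1, a proteasome activator subunit, led them downward (-0.28 ± 0.06). NLRC5, the activator of class I genes, rose in PRAD (0.71 ± 0.13) and in TNBC (0.17 ± 0.05), and the chaperone CALR fell in TNBC (-0.37 ± 0.03). Of 45 other interferon-stimulated genes, 6 rose and 0 fell of 35 tested in COAD (1.47% and 1.09% of all genes), and 4 rose and 0 fell of 35 in PRAD (2.4% and 0.58%). In PAAD 1 rose and 4 fell of 43 (4.72% and 3.62%), and in TNBC 4 rose and 6 fell of 42, near the 9.65% and 11.3% of all genes. The largest called changes were LAMP3 in COAD (1.29 ± 0.29), the chemokine CXCL10 (-0.37 ± 0.07) and WARS1 (0.29 ± 0.05) in PAAD, APOL6 in PRAD (1.13 ± 0.18), and IDO1 (-1.2 ± 0.33) and WARS1 (0.27 ± 0.05) in TNBC.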

How the data were processed

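RNA of 24 libraries from 4 cell lines was sequenced. Per the methods, the authors used fastp for trimming, STAR for alignment to hg38 and picard for the removal of duplicates, and featureCounts (2.0.3 in the header of the deposited tables) gave the gene totals. The deposited values are raw counts for 58051 genes, counted without strand, and the PRAD table lacks the paired-end option, so that a fragment mostly gave 1 count there and 2 elsewhere. The 38 members and all gene lists were chosen with earlier results of these data known. Genes named with values in every library were the called members, at most the 4 largest per line and direction, STAT2, IRF9, ISG15, B2M and JAK1, the 6 members with the largest spread between controls, and the called list gene with the largest change per line and direction; other names were added after values were seen.

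Counts were filtered with filterByExpr, scaled by TMM and tested with the robust quasi-likelihood F-test of edgeR 4.0.16 in R 4.3.3 (two-sided), with Benjamini-Hochberg adjustment over all tested genes. The call was an adjusted p under 0.05, for controls together with at least 2-fold. Each line was fitted alone for Ocoxin, the 9 controls of COAD, PAAD and TNBC for the level, and 18 libraries for the difference of responses. SE is the absolute log2 fold change over the square root of F. The script was tested on simulated data.

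Libraries with the same number deviated together (correlation over genes with a mean of at least 10 CPM above 0.1 in every pair) in PAAD (0.314 to 0.615), PRAD (0.176 to 0.605) and TNBC (0.285 to 0.629) but not in COAD (0.0813 to 0.503). The pairing comes from the data, since the labels do not explain the numbers, and over all tested genes not every pair passed. Alternatives were DESeq2 1.42.0, its size factors, other filters and thresholds, each library left out, a fitted trend in length and GC content, a replicate block and a fit of all libraries. Some genes of the pathway lists are not reported here.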

Additional observations from a re-analysis of the deposited data

Results flagged for a closer look

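The response to Ocoxin differed between lines, by a test of the difference, in 8 member comparisons. These were 5 members for TNBC and COAD, 2 for PAAD and COAD and 1 for TNBC and PAAD, of 38 each, beside 7.85%, 3.96% and 4.56% of all tested genes, so the last 2 counts are near or under the share of all genes. The log2 response of TNBC minus that of COAD was -0.302 for IRF1, -0.89 for ISG20, -0.64 for IFI35, -1.03 for BST2 and -0.41 for B2M. The response of PAAD minus that of COAD was -1.08 for BST2 and -0.43 for B2M, and that of TNBC minus PAAD was -0.504 for ISG20. BST2 has between 76 and 144 counts per library in COAD, where its rise was called, and 9642 to 13793 in PAAD and TNBC.

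In PRAD every Ocoxin library moved away from the controls in the opposite direction to another line in 4 members, and these differences were not tested, because PRAD was counted in another table. The log2 response of PRAD minus that of TNBC was 1.01 for IRF1, 1.25 for ISG20 and 0.78 for IFI35, and the response of PRAD minus that of COAD was -1.57 for OASL. OASL read 0.583, 0.555 and 0.87 CPM in the COAD controls and 1.13, 1.11 and 1.5 after Ocoxin, on 18 to 38 counts per library.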

How the results depend on the processing

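No called member or difference changed its direction under any alternative. The replicate block gave 12 calls in COAD in place of 6, 11 in PAAD in place of 2, 9 in PRAD in place of 2 and 23 in TNBC in place of 6. In COAD the numbers are not paired by the check, since one same-number correlation was 0.0813. The share of all genes called with the block is not given for COAD, so its 12 calls are not read as a result about the members. For the differences of response the block gave 12 (PAAD and COAD), 15 (TNBC and COAD) and 7 (TNBC and PAAD) in place of 2, 5 and 1. Of all genes, 12.5% were called for TNBC and PAAD with the block. That share is not given for the 2 comparisons with COAD, which also block COAD by its unpaired numbers. Their counts are therefore not read as a result about the members. With both the block and the trend, 8 members were called in PAAD, 12 for PRAD and 22 for TNBC, and the trend alone 7 in PAAD and 4 in PRAD. A fit of all 24 libraries gave 1 call in COAD and 4 in PRAD, and a minimum of 1.5-fold left 1 in COAD, 0 in PAAD and 0 in TNBC. Without a filter there were 4 calls in PAAD, 5 in PRAD and 4 for PAAD and COAD, and DESeq2 gave 5 for PAAD and COAD and 9 for TNBC and COAD. Leaving out both TNBC libraries numbered 3 gave 18. A minimum of 4-fold left 15 of 28 calls for TNBC control against PAAD control. For alternatives other than the block, the share of all genes is not given. Counts from those alternatives, here and below, are not read as a result about the members.

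Leaving out single libraries gave 3 to 11 calls in COAD, 0 to 7 in PAAD, 0 to 1 in PRAD and 4 to 10 in TNBC. For the controls it gave 37 in every case (PAAD and COAD), 31 to 35 (TNBC and COAD) and 26 to 28 (TNBC and PAAD), and for the differences 1 to 4, 4 to 8 and 0 to 2 in the same order. The cause of these shifts was not tested. PRAD levels rest on fewer reads, and SW620 counts of the near-absent members are too low for a test of Ocoxin.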
